A study of Homo sapiens with 30 samples.

Results

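Palmul-tang is a Korean herbal formula given as a tonic, and its ethanol extract was tested here on A549 cells, an established line from a human lung carcinoma. The comparison was between the high dose, 500 µg/mL for 24 h, with 3 libraries, and the low dose, 20 µg/mL for 24 h, with 3 libraries. These 6 libraries were chosen by the treatment and dose in their labels, out of 30 in the series. The 3 libraries of the medium dose, 100 µg/mL for 24 h, are shown where they place a change between both doses. No vehicle library entered the comparison, so a difference is one between doses of the extract and not from untreated cells. The labels name 1 batch for all libraries and do not state whether the replicates came from separate cultures. The p-values reflect how far libraries of the same formula and dose vary, pooled over the 27 extract libraries of the series. That variation may be technical. The content of the extract is not given in the labels.

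Extracts of plants hold many small molecules that cells sense through a few well-known systems. The aryl hydrocarbon receptor (AhR) binds flat aromatic ligands and switches on enzymes that oxidize them. NRF2 is released from its inhibitor KEAP1 by electrophiles and raises glutathione synthesis, iron handling and NADPH supply, and A549 carries a KEAP1 mutation that keeps it active. A549 also transcribes genes of plasma proteins that are better known from liver, among them the fibrinogen chains.

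Totals ran from 30439047 to 35039005 expected counts in the 9 Palmul-tang libraries. Values below are CPM, a gene's count relative to the scaled size of its library, and levels in CPM are compared between libraries and not between genes, since they are not divided by gene length. The A549 markers KRT8, KRT18 and KRT7 stood between 2270 and 3700 CPM in each library, and CDKN2A, deleted in this line, was at 0 in all 9. The alveolar type 2 marker SFTPA1 was at 0, and ALB, PTPRC and VWF were below 1 CPM in each library. The 6 hepatocyte markers summed to 17.9 to 22 CPM at high dose and 23.1 to 24.4 CPM at low dose. The mitochondrial share of counts was 14.1%, 15.3% and 12.3% in the high-dose libraries and 13.5%, 12% and 14.9% in the low-dose libraries, with overlapping ranges. On the first principal component of the 9 libraries, which held 16.2% of the variance, the high dose lay between 4.37 and 21.39 and the low dose between -19.92 and -0.92.

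At 500 µg/mL 697 of 17632 tested genes differed from 20 µg/mL, which is 3.95% (edgeR quasi-likelihood test, Benjamini-Hochberg adjusted p under 0.05). Of these, 287 rose (1.63%) and 410 fell (2.33%). The changes were small: the median log2 change was 0.24 among genes that rose and -0.27 among those that fell, and 0.00 over all genes tested. A rise of 1.5-fold or more was found in 19 of them and a fall of that size in 48, and 2-fold or more in 5 and 10. Protein-coding genes held 283 of the rises and 403 of the falls, among 13929 tested. Among 2367 long non-coding genes 3 rose and 1 fell, and among 993 pseudogenes 1 rose and 5 fell. The total depended on single libraries: it was 372 without high replicate 1, 394 without low replicate 3 and 381 when these 6 libraries were fitted alone.

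**Figure D1:**
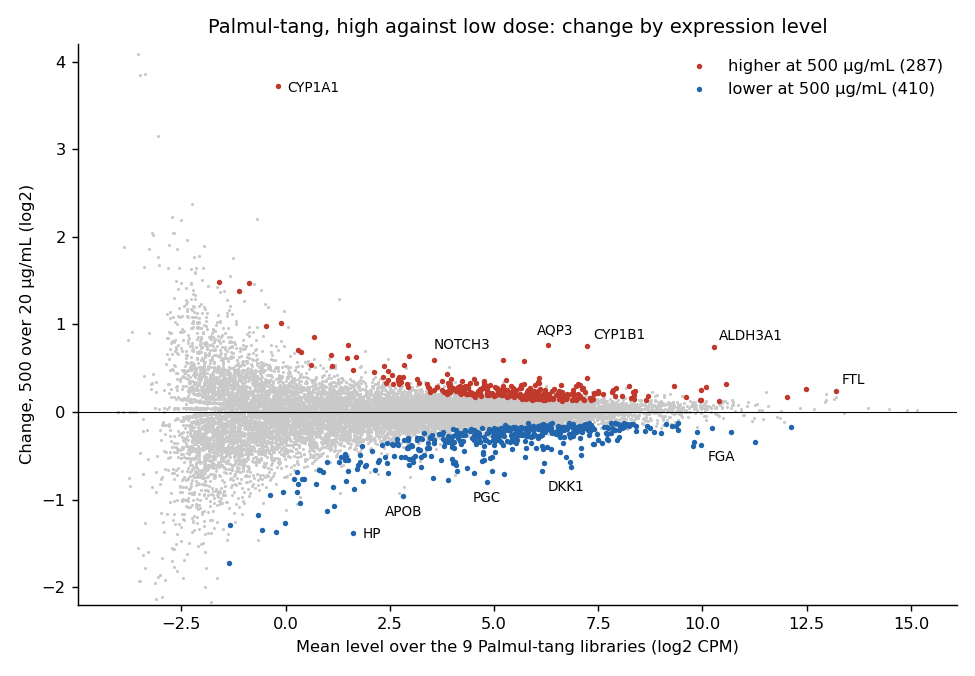
Change between the doses against expression level. The x axis is the mean log2 CPM over the 9 Palmul-tang libraries and the y axis the log2 change, 500 over 20 µg/mL. Red points are the 287 genes that rose, blue points the 410 that fell and grey points the other tested genes, of which 41 with larger fitted changes lie outside the axis. CYP1A1 stands alone among the genes that rose, and most other coloured points lie within 1 log2 of 0.

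The AhR genes that rose were mostly its target enzymes. Of 12 tested genes of the pathway, 6 rose and none fell, against 1.63% of all genes rising, and the median log2 change of the 12 was 0.29. The receptor AHR (log2 change -0.15, adjusted p = 0.208) and its partner ARNT (-0.03, 0.875) did not pass. CYP1A1 (ENSG00000140465, chromosome 15, 74719542 to 74725610, minus strand), a monooxygenase and a classic AhR target, stood at 4.53, 3.58 and 3.10 CPM at high dose, against 0.281, 0.249 and 0.310 CPM at low dose. The groups did not overlap, and the fitted log2 change was 3.72 (SE 0.25, adjusted p = 9.02e-12). Its medium-dose libraries, at 0.599, 0.557 and 0.320 CPM, lay above all low-dose libraries and far below the high dose. DESeq2 gave no adjusted p for CYP1A1. The 250 bases before the CYP1A1 start are shown because they hold the core of the AhR response element, GCGTG on either strand, in capitals 57 bases before the start (RefSeq, GRCh38.p14, chr15:74725529-74725778, minus strand).
CYP1A1: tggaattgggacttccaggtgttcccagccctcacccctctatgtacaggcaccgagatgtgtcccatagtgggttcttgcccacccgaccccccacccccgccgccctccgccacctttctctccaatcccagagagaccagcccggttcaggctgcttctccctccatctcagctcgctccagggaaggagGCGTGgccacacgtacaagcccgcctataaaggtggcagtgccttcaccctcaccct
This core was found in the windows of 3 of the 4 AhR genes that rose and have an entry, TIPARP, CYP1A1 and SLC7A5, and in 44.2% of the windows of 12021 tested genes, so a match is common.

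CYP1B1 (ENSG00000138061, chromosome 2, 38066973 to 38109902, minus strand), which oxidizes oestrogens and aromatic hydrocarbons, stood at 210, 204 and 206 CPM at high dose and 126, 123 and 120 CPM at low dose. Each high-dose library was above each low-dose library, and the log2 change was 0.75 (SE 0.037, adjusted p = 1.04e-14). Its exons overlap RMDN2-AS1 on the same strand and CYP1B1-AS1 and RMDN2 on the other. ALDH3A1 (ENSG00000108602, chromosome 17, 19737984 to 19748943, minus strand), which oxidizes aromatic and lipid aldehydes and has AC005722.3 on the other strand, stood at 1670, 1680 and 1600 CPM at high dose and 1000, 987 and 978 CPM at low dose. The groups were again separate, with a log2 change of 0.74 (SE 0.042, adjusted p = 1.58e-13).

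CYP2S1, a monooxygenase of epithelia, held 16.3, 20.9 and 16.9 CPM at high dose and 13.4, 12 and 14.6 CPM at low dose (log2 change 0.43, SE 0.10, adjusted p = 0.018). TIPARP, a feedback repressor of the receptor, held 38.1, 34.7 and 36.1 CPM against 30.8, 28.4 and 29.9 CPM at low dose (0.29, SE 0.051, adjusted p = 0.000408). In both genes the doses did not overlap, though the replicate 2 library of high-dose CYP2S1 lay apart from the other two. The last to rise was SLC7A5, the light chain of the large neutral amino acid transporter, at 1190, 1250 and 1180 CPM against 1060, 960 and 955 CPM at low dose (0.28, SE 0.045, adjusted p = 9.57e-05). AHRR, the receptor's repressor (log2 change 0.32, adjusted p = 0.276), NQO1 (0.13, 0.14) and UGT1A6 (-0.19, 0.0886) did not pass.

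NRF2 targets rose by less. Of 36 tested genes of the pathway 11 rose and none fell, against 1.63% of all genes rising, with a median log2 change of 0.11. Those 11 were 7 when the 6 libraries were fitted alone. NFE2L2, which encodes NRF2 (0.13, adjusted p = 0.0799), and KEAP1 (0.02, 0.923) did not pass. HMOX1 (ENSG00000100292, chromosome 22, 35380361 to 35394214, plus strand), which cleaves heme, stood at 69.2, 65.5 and 67.1 CPM at high dose and 44.7, 43.8 and 46.8 CPM at low dose. It changed by 0.58 log2 (SE 0.049, adjusted p = 1.77e-09), with no overlap. Its medium-dose libraries, at 46.2, 47.9 and 49.7 CPM, reached into the low-dose range.

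The ferritin chains FTH1 and FTL, which store iron, rose as well. FTH1 held 6570, 6560 and 6260 CPM at high dose and 5500, 5350 and 5300 CPM at low dose, a log2 change of 0.26 (SE 0.051, adjusted p = 0.00145). FTL rose by 0.24 (adjusted p = 0.00327) and FECH, which inserts iron into heme, by 0.15 (adjusted p = 0.0311). In the glutathione branch GCLM, GCLC and SLC7A11 rose, which are the modifier and catalytic subunits of glutamate-cysteine ligase and the cystine importer. GCLM (ENSG00000023909, chromosome 1, 93885205 to 93909456, minus strand) stood at 174, 175 and 174 CPM at high dose and 138, 133 and 129 CPM at low dose. The high-dose libraries were nearly equal and above all low-dose libraries, with a log2 change of 0.38 (SE 0.042, adjusted p = 2.39e-07). GCLC rose by 0.25 (adjusted p = 1.71e-05) and SLC7A11 by 0.26 (adjusted p = 0.000614). The remaining 4 were SRXN1, which repairs peroxiredoxins (0.23, adjusted p = 0.000705), OSGIN1 (0.24, 0.00503), the aldo-keto reductase AKR1B10 (0.17, 0.0212) and PGD of the pentose phosphate pathway (0.13, 0.0335). TXNRD1, thioredoxin reductase, did not pass (0.08, adjusted p = 0.435). The window before the GCLM start is shown for its antioxidant response element core, TGACNNNGC on either strand, in capitals 34 bases before the start on the opposite strand (RefSeq, GRCh38.p14, chr1:93909431-93909680, minus strand).
GCLM: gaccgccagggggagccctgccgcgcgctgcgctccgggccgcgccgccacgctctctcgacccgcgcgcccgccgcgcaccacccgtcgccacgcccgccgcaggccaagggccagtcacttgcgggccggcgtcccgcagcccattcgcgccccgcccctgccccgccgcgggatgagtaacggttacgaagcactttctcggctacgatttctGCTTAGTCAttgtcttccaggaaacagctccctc
Windows were listed for 7 of the NRF2 genes that rose, and 3 of these held the core, PGD, GCLM and FECH, against 12.1% of the windows of tested genes.

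The ATF4 pathway is switched on by amino acid shortage and other stresses. Of its 26 tested genes 6 rose and 1 fell, with a median log2 change of 0.10. Over all genes tested, 1.63% rose and 2.33% fell. ASNS (ENSG00000070669, chromosome 7, 97852118 to 97872542, minus strand, sharing exons with AC079781.5 on the same strand), which makes asparagine, held 48.4, 42.4 and 45.8 CPM at high dose and 34.1, 35.5 and 36.6 CPM at low dose. The doses were separate and the log2 change was 0.36 (SE 0.050, adjusted p = 1.64e-05). PHGDH, which opens serine synthesis, rose by 0.30 (adjusted p = 0.00106), MTHFD2 of mitochondrial folate metabolism by 0.21 (0.0101) and the transporter SLC1A4 by 0.35 (0.0136). SLC7A5 and SLC7A11, given above, belong to this list too. The amino acid transporter SLC38A2 fell, with 269, 291 and 292 CPM at high dose and 318, 316 and 317 CPM at low dose (-0.16, adjusted p = 0.0319). ATF4 itself (0.10, adjusted p = 0.205), DDIT3 (0.08, 0.832) and TRIB3 (0.05, 0.731) did not pass. Of 20 aminoacyl-tRNA synthetases only YARS1 passed (0.14, adjusted p = 0.0276), and the median of that list was 0.07. That call was lost without high replicate 1, high replicate 3, low replicate 2 or low replicate 3. The unfolded protein response list held no gene that passed among 18 tested (median -0.04).

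**Figure D2:**
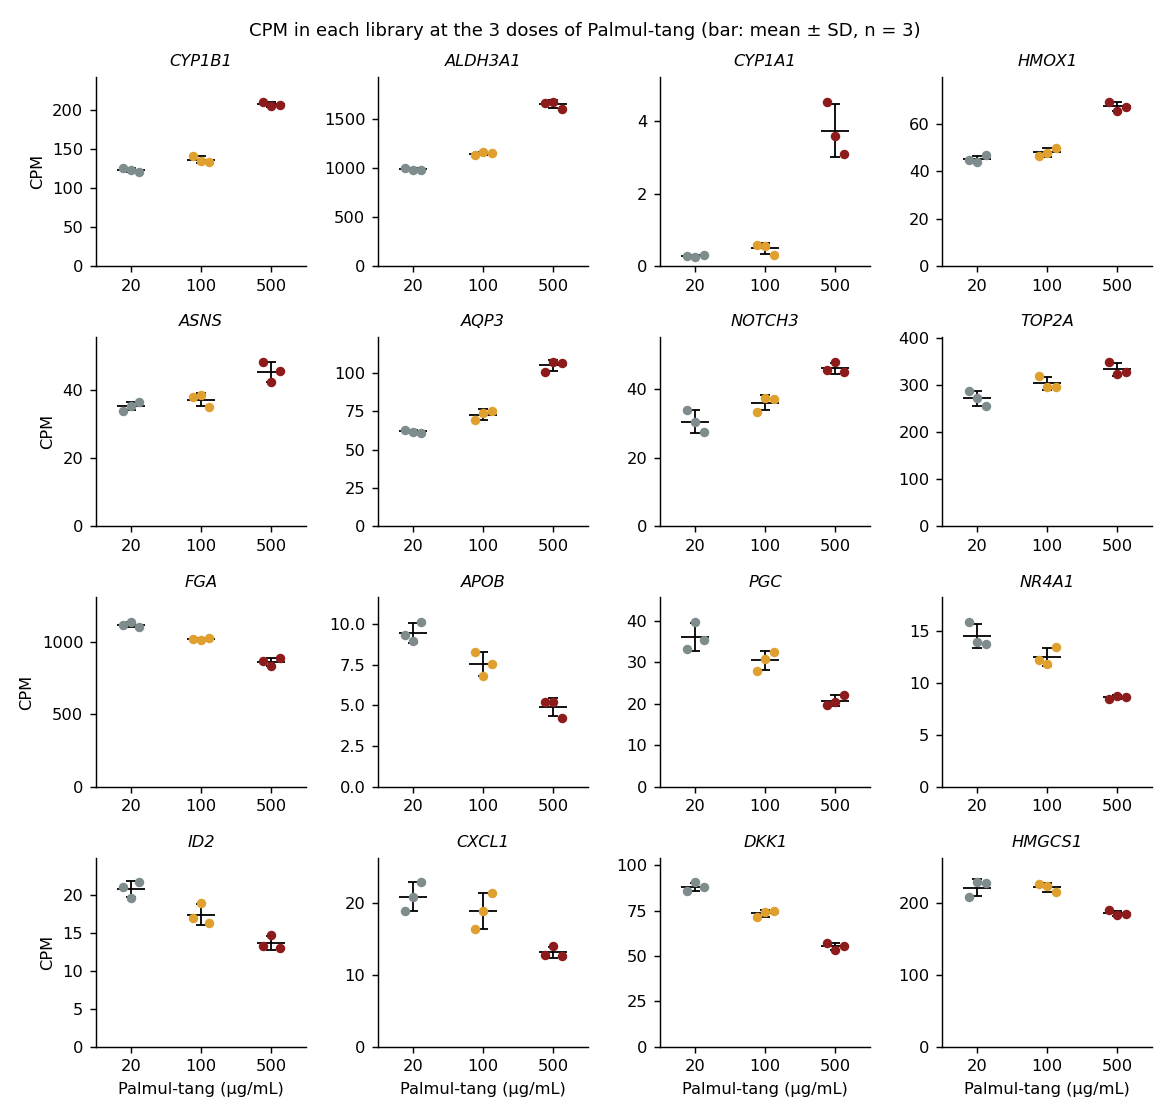
CPM in each library (points) with the mean and SD (black bars, n = 3) at 20, 100 and 500 µg/mL of Palmul-tang, for 16 genes, each on its own axis from 0. All 16 genes show no overlap between 500 and 20 µg/mL, and in CYP1A1, HMOX1 and HMGCS1 the medium dose lies close to the low dose.

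Genes of cell division rose by small amounts. Of 37 mitosis genes 24 rose and none fell, against 1.63% of all genes rising. The median log2 change of the 37 was 0.23, with a range from 0.13 to 0.39. In 31 of the 37, all high-dose libraries lay above all low-dose libraries, which held for 8.5% of all genes tested. The count was 13 without high replicate 1, and 20 of the 24 had their highest value in that library. The summed CPM of the 37 genes was 3370, 3220 and 3060 at high dose and 2860, 2730 and 2720 at low dose, so the other two high-dose libraries were also above the low dose.

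PTTG1 (ENSG00000164611, chromosome 5, 160421822 to 160428744, plus strand) is the securin that restrains sister chromatid separation until anaphase. It stood at 86.2, 75.9 and 69.5 CPM at high dose and 60.3, 57.1 and 59.2 CPM at low dose. The high-dose libraries spread widely but stayed above the low dose, with a log2 change of 0.39 (SE 0.056, adjusted p = 3.06e-05). TOP2A, the topoisomerase that untangles chromosomes, held 349, 324 and 328 CPM against 287, 273 and 255 CPM at low dose (0.30, SE 0.047, adjusted p = 0.000112). CDC20, an activator of the anaphase-promoting complex, rose by 0.33 (SE 0.052, adjusted p = 0.000138) and the spindle motor KIF11 by 0.26 (SE 0.043, adjusted p = 0.000216). Among cyclins and kinases, CCNA2 rose by 0.28, CCNB1 by 0.27, CCNB2 by 0.25, AURKB by 0.25 and CDK1 by 0.21, with adjusted p-values from 0.000354 to 0.00864. MKI67 (0.14, adjusted p = 0.409) and FOXM1, a transcription factor of this programme (0.19, 0.0904), did not pass. None of the 37 passed between high and medium dose, or between medium and low dose.

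Windows are shown for CCNB2 and PLK1, a cyclin and a kinase that rose (PLK1 by 0.25, adjusted p = 0.0411), because both hold the cell cycle genes homology region TTTGAA 29 bases before the start, with CCAAT boxes further upstream. Capitals mark both motifs (RefSeq, GRCh38.p14, chr15:59104896-59105145 and chr16:23678639-23678888, both plus strand).
CCNB2: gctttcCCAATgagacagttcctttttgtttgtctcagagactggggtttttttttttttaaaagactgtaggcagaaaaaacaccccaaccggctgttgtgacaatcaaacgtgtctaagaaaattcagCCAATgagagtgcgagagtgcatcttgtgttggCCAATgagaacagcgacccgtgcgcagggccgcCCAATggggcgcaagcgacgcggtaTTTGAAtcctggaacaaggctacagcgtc
PLK1: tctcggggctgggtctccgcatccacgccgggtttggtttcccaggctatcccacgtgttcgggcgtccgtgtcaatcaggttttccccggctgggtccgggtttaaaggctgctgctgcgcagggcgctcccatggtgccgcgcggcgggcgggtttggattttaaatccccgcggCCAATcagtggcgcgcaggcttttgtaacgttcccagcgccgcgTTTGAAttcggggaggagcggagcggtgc
On either strand, TTTGAA was found in 11 of the 20 windows listed for mitosis genes that rose, which is 55%, against 8.68% of the windows of tested genes, 20.1% of those of all genes that rose and 11.1% of those of genes that fell. CCAAT was found in 16 of the 20, or 80%, against 34.8% of the windows of tested genes. Both motifs were added to the planned ones, and these shares have no test.

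DNA replication genes followed, with 14 of 34 rising, against 1.63% of all genes, none falling and a median of 0.16. The count was 5 without high replicate 1, 6 without low replicate 2, 7 without low replicate 3 and 7 when the 6 libraries were fitted alone. Genes of the replication fork and of nucleotide supply were both among them. LIG1, the ligase that seals Okazaki fragments, held 41.5, 40.2 and 42.1 CPM at high dose and 36.1, 33.6 and 31.7 CPM at low dose (0.29, SE 0.050, adjusted p = 0.000357). TYMS, which makes thymidylate, held 54.8, 53.6 and 56.1 CPM against 46.4, 45.6 and 44.4 CPM at low dose (0.27, SE 0.048, adjusted p = 0.000411). Both genes were separate between the doses. RRM1 rose by 0.21 (adjusted p = 0.00123), PRIM1 by 0.29 (0.00356, not passed without high replicate 1) and the helicase subunits MCM4, MCM2 and MCM5 by 0.15, 0.22 and 0.17.

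AQP3 (ENSG00000165272, chromosome 9, 33441154 to 33447633, minus strand), a channel for water and glycerol, had the largest rise among genes whose log2 CPM averaged 2 or more and whose doses did not overlap, a minimum level that CYP1A1 did not reach. It stood at 101, 107 and 107 CPM at high dose and 62.8, 61.8 and 61.0 CPM at low dose, a log2 change of 0.76 (SE 0.044, adjusted p = 2.31e-13). The doses were far apart relative to their spread, and the medium dose lay between them at 69.0, 74.1 and 75.5 CPM. The other 5 tested aquaporins did not pass, with AQP1 at 0.73 (adjusted p = 0.319) and AQP11 at -0.25 (0.549). NOTCH3 (ENSG00000074181, chromosome 19, 15159038 to 15200981, minus strand), a receptor of the Notch pathway, held 45.3, 47.7 and 44.7 CPM against 33.8, 30.2 and 27.3 CPM at low dose (0.59, SE 0.062, adjusted p = 9.48e-08). It was the only one of 15 tested Notch genes to pass: the receptor NOTCH1 (0.11, adjusted p = 0.634), the ligand JAG1 (-0.03, 0.849) and the targets HES1 (-0.01, 0.972) and HEY1 (-0.41, 0.204) did not.

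Within the same limits on level and overlap, the 10 largest rises also included WNT7B, a secreted WNT ligand (0.64, SE 0.098, adjusted p = 6.68e-05), and GPAT3, an enzyme of triglyceride synthesis (0.59, SE 0.073, adjusted p = 2.26e-06). EEF1A2, a tissue-restricted translation elongation factor, rose by 0.54 (SE 0.10, adjusted p = 0.00136) and the matrix protein OLFML2A by 0.53 (SE 0.10, adjusted p = 0.00165). WNT7B held 9.76, 11.1 and 9.01 CPM at high dose and 7.13, 6.01 and 5.95 CPM at low dose, without overlap. GRHL3, a transcription factor of epithelia, rose by 0.47 (adjusted p = 0.00607), a call lost without high replicate 2 (0.0662) or low replicate 3 (0.0537). In metabolism, 3 of 18 genes of fatty acid oxidation rose: CPT1A, which admits fatty acids to mitochondria (0.32, adjusted p = 1.02e-05), the lipid droplet coat PLIN2 (0.24, 0.000718) and ACAA2 (0.20, 0.00506). CPT1A held 58.8, 58.9 and 61.0 CPM at high dose and 49.5, 45.9 and 48.0 CPM at low dose. Of 20 glycolysis genes 3 rose, ALDOC (0.37, adjusted p = 0.000855), the glucose transporter SLC2A1 (0.19, 0.00871) and GPI (0.14, 0.0414), and 1 fell, the glucose transporter SLC2A3 (-0.39, 0.000148). The shares to set beside both lists are 1.63% of all tested genes that rose and 2.33% that fell. The rises in glycolysis came to 1 gene without low replicate 3. GPI was also lost without high replicate 2, high replicate 3 or low replicate 2. ACAA2 did not pass without high replicate 1 or low replicate 3.

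The largest group of falls was in genes of liver-type plasma proteins. Of 27 tested, 15 fell and none rose, against 2.33% of all genes falling, with a median log2 change of -0.34. In 21 of the 27, all high-dose libraries lay below all low-dose libraries, which held for 9.01% of all genes. The count ranged from 12 to 16 over the libraries left out in turn. ALB and TTR, the defining hepatocyte genes, were too low to be tested.

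APOB (ENSG00000084674, chromosome 2, 21001429 to 21044073, minus strand, with AC010872.1 on the other strand), the structural protein of low-density lipoprotein, stood at 5.2, 5.24 and 4.24 CPM at high dose and 9.34, 8.94 and 10.1 CPM at low dose. The doses did not overlap, and the log2 change was -0.96 (SE 0.11, adjusted p = 1.23e-06). HP (ENSG00000257017, chromosome 16, 72054592 to 72061055, plus strand), haptoglobin, which binds free haemoglobin, held 1.58, 1.82 and 1.88 CPM against 4.41, 4.67 and 4.65 CPM at low dose (-1.38, SE 0.17, adjusted p = 1.76e-06). It shares much of its sequence with HPR, so its reads may be divided between them. The heme carrier HPX fell too (-0.62, SE 0.15, adjusted p = 0.0123). Among protease inhibitors, SERPINA1, alpha-1-antitrypsin, held 30.7, 29.1 and 27.8 CPM at high dose and 47.6, 45.7 and 49.5 CPM at low dose (-0.71, SE 0.11, adjusted p = 0.000572), and ITIH2 fell by 0.55 on the log2 scale (adjusted p = 0.00258).

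The 3 fibrinogen chains moved nearly alike. FGA (ENSG00000171560, chromosome 4, 154583126 to 154590766, minus strand) stood at 869, 833 and 889 CPM at high dose and 1120, 1140 and 1110 CPM at low dose, a log2 change of -0.38 (SE 0.036, adjusted p = 3.01e-08). FGB held 791, 756 and 731 CPM against 991, 981 and 998 CPM at low dose (-0.38, SE 0.038, adjusted p = 3.91e-08), and FGG held 807, 757 and 765 CPM against 945, 1020 and 983 CPM (-0.34, SE 0.041, adjusted p = 1.91e-06). None of the chains overlapped between the doses. KNG1, the kininogen of the contact pathway, fell by 0.78 on the log2 scale (SE 0.084, adjusted p = 2.53e-07) and PROS1, protein S, by 0.26 (SE 0.041, adjusted p = 0.000111). Among complement genes C5 held 114, 110 and 117 CPM at high dose and 153, 163 and 164 CPM at low dose (-0.49, SE 0.046, adjusted p = 1.03e-08), and CFB (-0.36, adjusted p = 0.0205) and C3 (-0.22, 0.00238) fell as well. APOH, beta-2-glycoprotein I, fell by 0.33 on the log2 scale (adjusted p = 0.00457). Members that did not pass included APOE (-0.22, adjusted p = 0.0725), TF (-0.34, 0.0844) and SERPINA3 (0.04, 0.891).

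Genes of gastric and mucous epithelium also fell: 4 of 12 tested passed, against 2.33% of all genes falling. None rose, and the median was -0.48. PGC (ENSG00000096088, chromosome 6, 41736711 to 41754109, minus strand), the precursor of the protease gastricsin, stood at 19.7, 20.5 and 22.2 CPM at high dose and 33.2, 39.8 and 35.5 CPM at low dose. The groups were separate, with a log2 change of -0.80 (SE 0.086, adjusted p = 2.03e-06). The membrane mucin MUC13 fell by 0.64 on the log2 scale (SE 0.072, adjusted p = 4.67e-07), MUC3A by 0.78 (SE 0.14, adjusted p = 0.00045) and CLDN2, a tight-junction protein that forms a pore for cations, by 0.69 (SE 0.13, adjusted p = 0.00124). MUC3A has a near-identical copy whose reads may be divided with it. MUC5AC (0.26, adjusted p = 0.552) and MUC5B (-0.36, 0.398), the gel-forming mucins, did not pass.

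**Figure D3:**
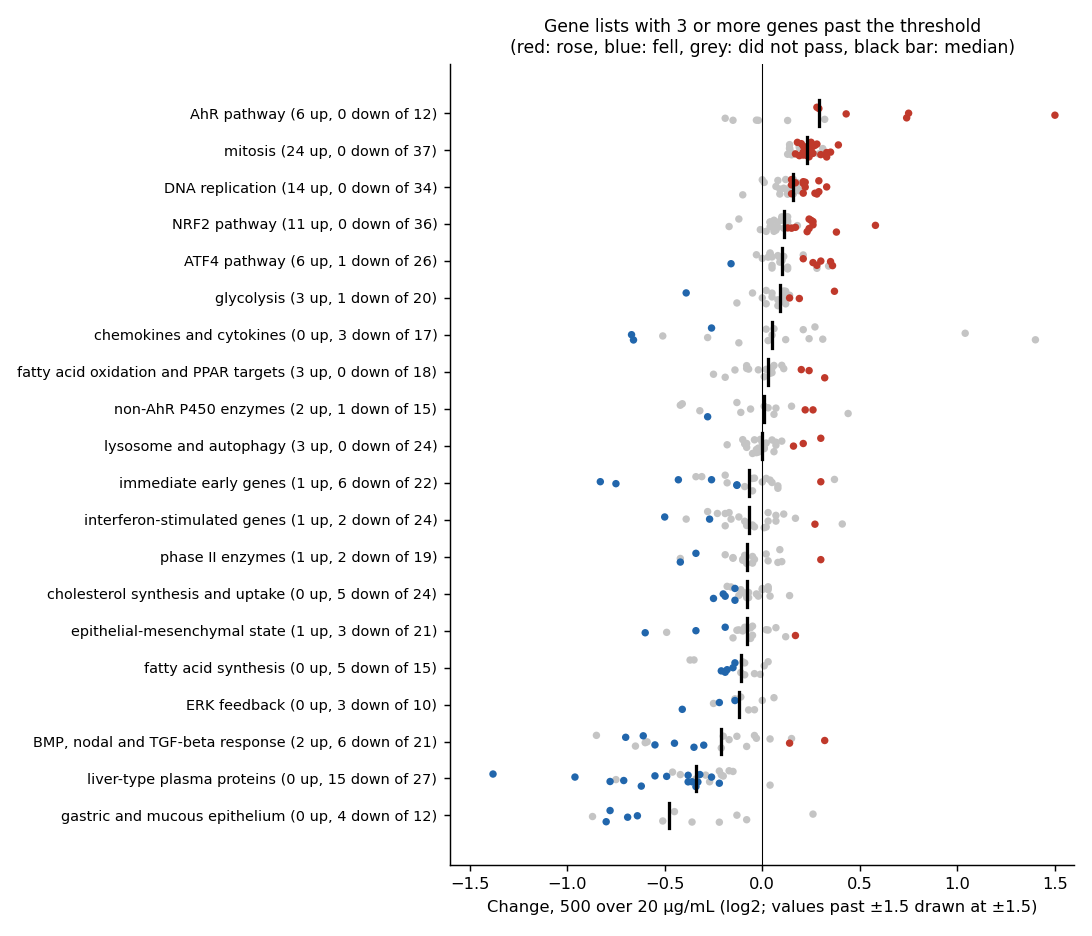
Log2 change, 500 over 20 µg/mL, of each tested gene of the 20 lists with 3 or more genes past the threshold. Red points rose, blue points fell, grey points did not pass, and black bars are list medians. CYP1A1 is drawn at the axis limit. The lists at the top, from AhR to ATF4, hold red points at the right, and those at the bottom, the plasma protein and gastric lists, hold blue points at the left.

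Several signalling genes fell. The counts below stand beside 2.33% of all tested genes that fell and 1.63% that rose. Of 22 immediate early genes, which cells switch on within minutes of a growth signal, 6 fell and 1 rose, with a median of -0.07, and the falls came to 3 without high replicate 1, low replicate 1 or low replicate 3. NR4A1 (ENSG00000123358, chromosome 12, 52022832 to 52059507, plus strand), an orphan nuclear receptor, stood at 8.4, 8.75 and 8.66 CPM at high dose and 15.8, 13.9 and 13.7 CPM at low dose. The high-dose libraries were close together and all below the low dose (-0.75, SE 0.074, adjusted p = 4.57e-08). Its relative NR4A3 (-0.83, adjusted p = 0.0419), CCN2 (-0.43, 0.000328), IER2 (-0.26, 0.0129), FOSL2 (-0.13, 0.0229) and KLF6 (-0.13, 0.0261) fell too, and IER3 rose (0.30, 0.00227). IER2 did not pass without high replicate 1 or low replicate 3. Of 10 feedback genes of the ERK pathway, SPRY4 (-0.41, adjusted p = 0.00108), ETV5 (-0.22, 0.0451) and DUSP4 (-0.14, 0.00721) fell, 1 of which passed without high replicate 1. ETV5 passed with a library left out only where that was high replicate 3, and did not pass with DESeq2.

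Of 17 chemokine and cytokine genes 3 fell, all of them CXC chemokines that attract neutrophils, and the median of the list was 0.05. Over all genes tested 2.33% fell, which is the share to set beside the falls in this and the next lists. CXCL1 (ENSG00000163739, chromosome 4, 73869393 to 73871242, plus strand) stood at 12.7, 14.0 and 12.7 CPM at high dose and 18.9, 20.8 and 22.9 CPM at low dose, without overlap (-0.67, SE 0.082, adjusted p = 2.32e-06). CXCL5 (-0.26, adjusted p = 0.000459) and CXCL8 (-0.66, 0.032) fell as well. The call of CXCL8 was lost in the fit to the 9 Palmul-tang libraries and without high replicate 2, high replicate 3, low replicate 1 or low replicate 3. IL1B had a log2 change of 1.04 that did not pass (adjusted p = 0.0884). In the NF-kB list SOD2, the mitochondrial superoxide dismutase (-0.27, adjusted p = 0.00183), and the feedback regulator NFKBIZ (-0.35, 0.0453) fell among 17 tested. NFKBIZ did not pass with DESeq2 or without any 1 of 5 libraries, all but high replicate 1. In the interferon list the transcription factor STAT2 (-0.27, adjusted p = 0.0104) and the exonuclease ISG20 (-0.50, 0.00683) fell, among 24 tested. Both calls were lost without high replicate 1, and that of STAT2 also without low replicate 2 or low replicate 3.

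The list of BMP, nodal and TGF-beta responses held 6 genes that fell and 2 that rose among 21, with a median of -0.21, and 3 fell without high replicate 1. ID2 (ENSG00000115738, chromosome 2, 8678845 to 8684453, plus strand, with ID2-AS1 on the other strand), an inhibitor of basic helix-loop-helix factors and a BMP target, stood at 13.2, 14.8 and 13.0 CPM at high dose and 21.1, 19.6 and 21.6 CPM at low dose. The doses were separate, with a log2 change of -0.61 (SE 0.070, adjusted p = 6.88e-07). ID3 held 77.6, 78.5 and 83.8 CPM against 111, 112 and 105 CPM at low dose (-0.45, SE 0.050, adjusted p = 3.49e-07). The BMP targets ATOH8 (-0.30, adjusted p = 8.94e-05), SMAD6 (-0.35, 0.00787) and SMAD9 (-0.55, 0.043) fell, whereas the TGF-beta target TGFBI rose (0.14, 0.0364). LEFTY1, a nodal antagonist, fell by 0.70 on the log2 scale (adjusted p = 0.011), a call lost without high replicate 1 (0.0737) or low replicate 2 (0.0555). LEFTY1 has a close copy, LEFTY2, and shares exons with AL117348.2 on its strand.

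The WNT antagonist DKK1 (ENSG00000107984, chromosome 10, 52314296 to 52318042, plus strand, with PRKG1-AS1 on the other strand) was at 57.4, 53.1 and 55.3 CPM at high dose and 86.0, 90.6 and 87.8 CPM at low dose (-0.67, SE 0.059, adjusted p = 2.45e-08). The secreted glycoprotein STC1 was at 23.3, 24.5 and 23.6 CPM against 35.5, 38.4 and 40 CPM at low dose (-0.68, SE 0.070, adjusted p = 1.7e-07). In both genes the high-dose libraries lay together and below the low dose. Among 21 genes of the epithelial and mesenchymal state, the matrix protein FN1 (-0.34, adjusted p = 1.16e-06), the tight-junction protein CLDN7 (-0.60, 0.000614) and E-cadherin, CDH1 (-0.19, 0.00324), fell, and vimentin, VIM (0.17, 0.0077), rose. VIM did not pass without low replicate 2. The genes that fell include epithelial and mesenchymal ones.

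Lipid synthesis genes fell by small amounts. Of 24 genes of cholesterol synthesis and uptake 5 fell and none rose, with a median of -0.08, and 3 fell without high replicate 2. HMGCS1 (ENSG00000112972, chromosome 5, 43289395 to 43313512, minus strand), which makes HMG-CoA, held 190, 184 and 184 CPM at high dose and 208, 229 and 227 CPM at low dose (-0.25, SE 0.042, adjusted p = 0.000197). The medium dose, at 226, 224 and 215 CPM, lay within the low-dose range. The sterol sensor INSIG1 (-0.20, adjusted p = 0.00338) and LSS, lanosterol synthase (-0.14, 0.0275), fell as well. Of 15 genes of fatty acid synthesis 5 fell, ACSS2 (-0.21, adjusted p = 0.00122), ELOVL6 (-0.19, 0.00392), the synthase FASN (-0.18, 0.0109), the carboxylase ACACA (-0.14, 0.0126) and GPAM (-0.15, 0.0311). The median of that list was -0.11, and 3 fell without high replicate 1 and 2 without low replicate 1, with FASN and ACACA lost in both.

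Enzymes and transporters of foreign compounds outside the AhR list moved in both directions. The calls below stand beside 1.63% of all tested genes that rose and 2.33% that fell. Of 15 P450 genes the omega-hydroxylases CYP4F3 (0.26, adjusted p = 0.000718) and CYP4F11 (0.22, 0.00192) rose and CYP4B1 (-0.28, 0.00273) fell. Of 19 phase II enzymes UGT1A1, whose exons are shared within its gene cluster, rose (0.30, adjusted p = 0.00113), and the sulfotransferase SULT1E1 (-0.34, 0.00413) and the glutathione transferase GSTA1, which has close copies (-0.42, 0.00683), fell. Of 9 ABC transporters ABCC6 fell (-0.57, adjusted p = 0.00452), a call lost without high replicate 1. In the lysosome and autophagy list SQSTM1, an autophagy receptor (0.30, adjusted p = 2.13e-05), CTSL (0.16, 0.011) and GLA (0.21, 0.0405) rose among 24, 1 of which passed without high replicate 1 or without low replicate 3. GLA was also lost without high replicate 3 or low replicate 2. Of 20 p53 targets DDB2 (0.22, adjusted p = 0.00538) and BAX (0.17, 0.0181) rose. Neither passed without low replicate 3, nor DDB2 without high replicate 1, nor BAX without high replicate 3.

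Few genes passed in the remaining lists. Over all genes tested, 1.63% rose and 2.33% fell, so a single call says little about its list. HIF1A (-0.18, adjusted p = 0.0228) and EPAS1 (-0.19, 0.0111), the hypoxia factors, fell among 12 of the hypoxia list. Both calls were lost without high replicate 1, high replicate 3 or low replicate 3, and that of EPAS1 also without low replicate 1. A single gene fell in each of the lists of glucocorticoid receptor targets (KLF9, -0.34, adjusted p = 4.18e-06, of 14), FOXO targets (SESN3, -0.23, 0.0156, of 14), the circadian clock (HLF, -0.38, 0.0157, of 19), metallothioneins (MT1X, which has close copies, -0.43, 0.000925, of 5) and heat shock (CRYAB, -0.39, 0.0256, of 13). SESN3, HLF and CRYAB each lost the call without high replicate 1 and without low replicate 3. The call was also lost without low replicate 1 for SESN3, without low replicate 2 or high replicate 3 for HLF, and without low replicate 1 or high replicate 3 for CRYAB. Of 31 proteasome genes PSMB2 rose (0.13, adjusted p = 0.0378), a call that passed with a library left out only where that was low replicate 1. The log2 changes of the 31 lay between 0.04 and 0.18. In 4 of them all high-dose libraries lay above all low-dose libraries, which held for 8.5% of all genes tested. The summed CPM of the 31 overlapped, at 4310, 3950 and 4290 at high dose and 4020, 4020 and 3790 at low dose. No gene passed among 42 ribosomal protein genes (median 0.06), 27 of the respiratory chain (0.06), 13 encoded in mitochondrial DNA (0.07) or 21 long nuclear and decay-sensitive RNAs (0.05).

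Most of the difference lay between 100 and 500 µg/mL. Between high and medium dose 173 genes passed, 0.981% of those tested, with 49 higher and 124 lower at high dose. Of these, 169 also differed the same way between high and low dose, which is 97.7% of the 173 and 24.2% of the 697, and both comparisons share the high-dose libraries. The step between medium and low dose held 0 calls by edgeR and 5 by DESeq2, and 784 genes had an unadjusted p below 0.05, fewer than the 882 that are 5% of those tested. For the 287 genes that rose between high and low dose, the medium dose reached a median of 39% of the log2 change (quartiles 26.2% and 53.3%), and for the 410 that fell 35.7% (24.2% and 46.4%). The medium mean lay between the low and high means in 275 of the 287 and 397 of the 410. Since these genes were selected for the difference between the outer doses, the position of the medium dose is a description.

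The largest changes between high and medium dose among genes that met the naming rule were the rises of CYP1B1 (0.60, adjusted p = 3.63e-12), AQP3 (0.52, 2.31e-09) and ALDH3A1 (0.52, 1.04e-09) and the falls of APOB (-0.63, 0.00228), PGC (-0.55, 0.000805) and NR4A1 (-0.54, 8.23e-05). In all 6 the log2 change between medium and low dose was smaller, at 0.15, 0.24 and 0.22 in the genes that rose and -0.33, -0.25 and -0.21 in those that fell. At 100 µg/mL PTTG1 and TOP2A had reached 56.6% and 53.8% of their log2 change, against 15.3% for HMOX1, 19.5% for CYP1B1 and 21.3% for CYP1A1, and these genes were picked after their values were seen and the shares have no test.

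**Figure D4:**
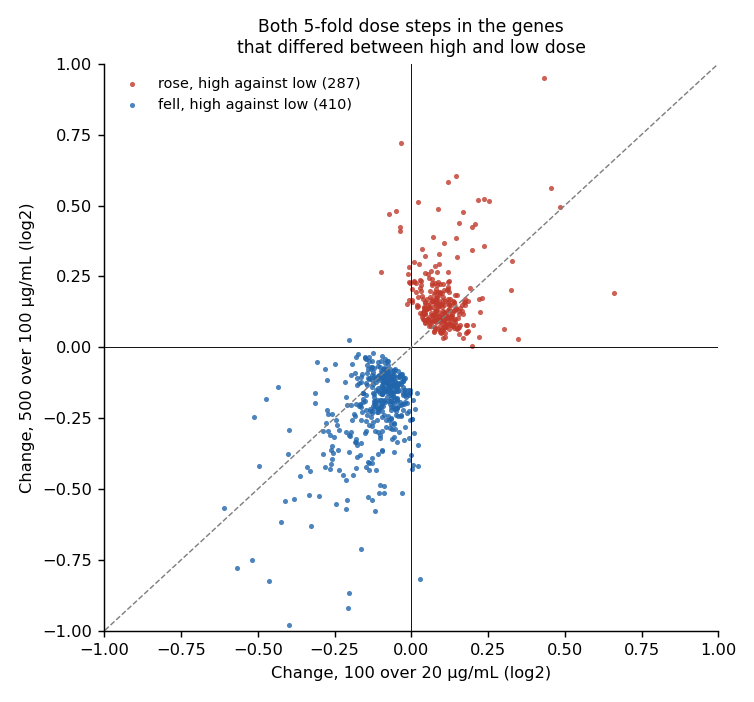
The 697 genes that differed between high and low dose, by their log2 change from 20 to 100 µg/mL (x axis) and from 100 to 500 µg/mL (y axis). The dashed line marks equal steps, both axes share the medium-dose libraries, and 5 genes lie outside the axes. The larger step was that to 500 µg/mL in 193 of the 287 red points (rose), above the line, and in 333 of the 410 blue points (fell), below it.

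The dose effect of Palmul-tang was set against that of Sibjeondaebo-tang, which adds further herbs to the Palmul-tang formula and was given at the same doses with 3 libraries each, in an interaction test that shares no library between the formulas. The effects differed in 2790 genes, 15.8% of those tested, with 1714 higher in Palmul-tang (9.72%) and 1076 lower (6.1%). Of the 697 genes that differed between the doses of Palmul-tang, 152 had a different dose effect, which is 21.8%. Of these, 74 changed less in Palmul-tang in the same direction, 25 changed more and 53 had opposite signs. For the other 545 the difference was not detected, which does not show that the effects were equal.

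HMOX1 rose less in Palmul-tang, by 0.58 against 0.90 log2 in Sibjeondaebo-tang, a difference of -0.32 (SE 0.069, adjusted p = 0.00154). The low-dose means were alike, at 45.1 ± 1.51 CPM in Palmul-tang and 45.4 ± 2.63 CPM in Sibjeondaebo-tang, and the high-dose means were 67.3 ± 1.86 and 84.5 ± 4.87 CPM (SD, n = 3 each). SLC7A5 differed in the same way (0.28 against 0.65, adjusted p = 0.000104). NR4A1 fell more in Palmul-tang (-0.75 against -0.37, adjusted p = 0.0126). CYP4F3 rose in Palmul-tang, whereas its log2 change in Sibjeondaebo-tang was -0.41, a difference of 0.67 (SE 0.068, adjusted p = 3.31e-08). No difference was detected for CYP1B1 (-0.14, SE 0.053, adjusted p = 0.0718), ALDH3A1 (-0.09, SE 0.058, 0.336), AQP3 (-0.05, SE 0.062, 0.664) or APOB (-0.06, SE 0.16, 0.87).

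**Figure D5:**
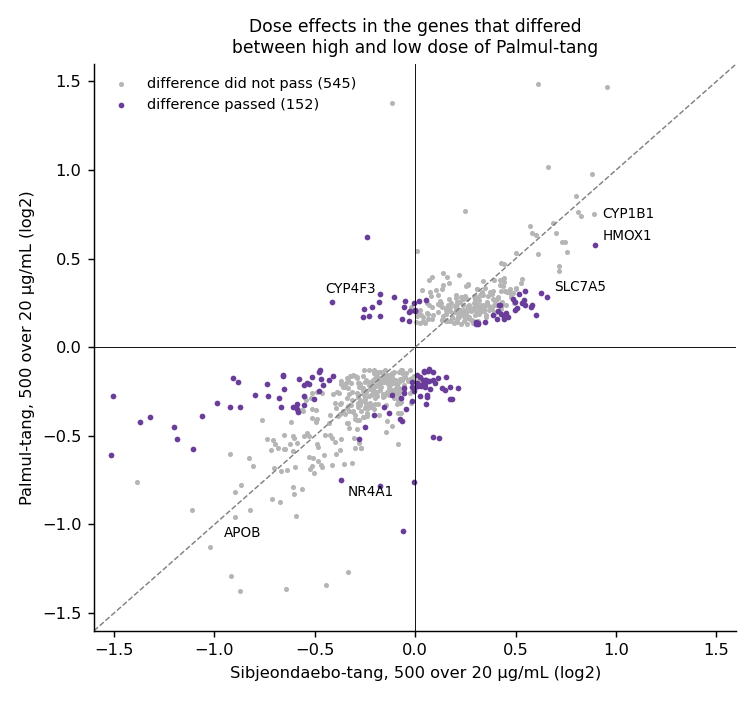
The 697 genes that differed between the doses of Palmul-tang, by their log2 change, 500 over 20 µg/mL, in Palmul-tang (y axis) and in Sibjeondaebo-tang (x axis). Purple marks the 152 genes whose dose effect differed between the formulas, the dashed line marks equal effects, and 7 genes lie outside the axes. CYP1B1 and APOB lie near the line, HMOX1 and SLC7A5 to its right and CYP4F3 to its left.

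By the naming rule, the 3 top positive differences between the formulas were in CCDC18-AS1, SEC31B and GOLGA8A. CCDC18-AS1, GOLGA8A and SEC31B had log2 changes of -0.11, -0.28 and -0.42 in Palmul-tang, none of which passed, against -2.14, -2.18 and -2.41 in Sibjeondaebo-tang. Against Samul-tang, whose herbs are part of Palmul-tang and which had 2 libraries per dose, the dose effect differed in 2 genes, 0.0113% of those tested, and DESeq2 called 7, none of them among those 2. An unadjusted p below 0.05 was found in 972 genes, where 882 are 5% of those tested. The calls by edgeR were ID2, with a log2 change of -0.61 in Palmul-tang and 0.03 in Samul-tang (difference -0.63, SE 0.11, adjusted p = 0.0205), and ZNF225-AS1, which was at 0 in the low-dose Samul-tang libraries. Neither gene passed without low replicate 2 or without low replicate 3 of Samul-tang. The SE of the difference from Samul-tang was 0.059 for CYP1B1 and 0.070 for AQP3, close to the 0.053 and 0.062 of the difference from Sibjeondaebo-tang.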

How the data were processed

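RNA was measured in A549 cells by 100 bp paired-end sequencing of strand-marking libraries, per the labels. The submitters' processing notes name FastQC 0.11.9, Trim Galore 0.6.5, STAR 2.7.3a, RSEM 1.3.3 and the build GRCh38. The annotation release and strand setting of the counting are not given in the sources used here, so reads of overlapping antisense genes may not be separated. The deposited values are RSEM expected counts per gene, with no normalization by the authors. In the Palmul-tang libraries 8.94% to 9.26% of values were not whole, and they were rounded. Another 240 columns of the table were not used. Names came from a symbol table for 41209 of 60675 rows, and coordinates from GENCODE 29 on GRCh38.

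Genes were kept by filterByExpr (17632), scaled by TMM (0.923 to 1.05) and fitted with edgeR 4.0.16 in R 4.3.3 over the 27 extract libraries in 12 groups, with 15 residual degrees of freedom and a biological coefficient of variation of 4.84%. Within each comparison, p-values were adjusted by Benjamini-Hochberg across all tested genes and read at 0.05. The SE is the log2 change divided by the square root of F. Precision is given by the SD over libraries. The model was tested on simulated data. Promoter windows are the 250 bases before each RefSeq start (27305 genes, 12021 of them tested). The AhR and antioxidant response elements were planned, with earlier results of these data known. The cell cycle genes homology region, the CCAAT box and an HNF1 element were not in that plan and were added to it.

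The dose comparison, the 38 gene lists (791 genes, 737 tested) and the naming rule were chosen with earlier results of these data known. The rule took the 10 largest changes each way between high and low dose (mean log2 CPM of at least 2, no overlap), up to 4 genes per list by smallest adjusted p, and the 3 largest each way for the other contrasts. Other list members are named with their values, and some members that the counts include are not reported here by name. The alternatives were RLE size factors, no filter, fits to other sets of libraries, a replicate block, DESeq2 1.42.0 and each library left out.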

Additional observations from a re-analysis of the deposited data

Results flagged for a closer look

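The genes below had a dose effect in Palmul-tang that differed from that of another formula in the interaction test, and each value is the log2 change between 500 and 20 µg/mL in Palmul-tang minus that in the other formula. Against Sibjeondaebo-tang, log2 changes of opposite sign were found in CYP4F3 (0.67, adjusted p = 3.31e-08), EPAS1 (-0.24, 0.0086), FASN (-0.23, 0.00887), SULT1A3 (-1.86, 0.0218), MTCO1P12 (-0.69, 0.0329) and SPATA2L (-0.66, 0.00283). SULT1A3 has a near-identical copy and MTCO1P12 is a nuclear copy of a mitochondrial gene, so their reads may be divided.

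Rises were smaller in Palmul-tang for HMOX1 (-0.32), SLC7A5 (-0.37), VIM (-0.29), SLC2A1 (-0.26), SQSTM1 (-0.21), PLIN2 (-0.18), GPI (-0.18), PSMB2 (-0.17) and YARS1 (-0.16). That of SLC7A11 was larger (0.21, adjusted p = 0.0329). Falls were larger in Palmul-tang for MUC3A (-0.61), NR4A1 (-0.38), ATOH8 (-0.29), CXCL5 (-0.21), ID3 (-0.20), FGB (-0.18) and INSIG1 (-0.18). They were smaller for STAT2 (0.53) and SULT1E1 (0.58). The long non-coding CCDC18-AS1 (2.03), SEC31B (1.98) and GOLGA8A (1.91) had the largest differences among genes that met the naming rule, with most of the change in Sibjeondaebo-tang. GOLGA8A belongs to a family of similar genes.

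Against Samul-tang the difference was -0.63 for ID2 and -7.84 for ZNF225-AS1. DESeq2 called neither, and neither passed when low replicate 2 or low replicate 3 of Samul-tang was left out. For ZNF225-AS1 the value is a fitted number that depends on the prior count, since both low-dose Samul-tang libraries were at 0, and it is no measure of size. ZNF225-AS1 was at 1.46, 1.16 and 1.31 CPM at high dose and 1.16, 1.12 and 1.52 CPM at low dose of Palmul-tang.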

How the results depend on the processing

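Between high and low dose the number of genes called was 697, and it was 381 when only the 6 libraries compared were fitted (127 higher, 254 lower). In that fit the falls came to 3 immediate early, 1 ERK feedback, 3 cholesterol and 2 fatty acid synthesis genes, and the rises to 1 glycolysis and 1 lysosome gene. With one library left out in turn it was between 372 and 677. RLE size factors gave 686, no filter on low counts 819, DESeq2 624, the 9 Palmul-tang libraries alone 567 and all 30 libraries 615. Replicate numbers did not pair the high-dose and low-dose libraries (correlations of deviations from -0.0978 to -0.000229). For medium and low dose the same-number correlations were 0.0888, 0.0524 and 0.0767. For high and medium dose they were 0.0507, -0.0221 and 0.0119. With the numbers as a replicate block 860 genes passed, among them 99.9% of the 697. Between high and medium dose 173 genes passed, and 92 to 143 with one library left out. Between medium and low dose 0 passed, and 1 with RLE size factors, 12 with no filter, 2 with the 9 Palmul-tang libraries, 7 with only the groups compared, 1 with all 30 libraries, 8 with the replicate block, 5 with DESeq2 and 0 to 1 with one library left out. The difference from Samul-tang was called in 2 genes, and in 25 with no filter, 3 with only the groups compared, 1 with all 30 libraries, 4 with the block, 7 with DESeq2 and 0 to 2 with one library left out. The difference from Sibjeondaebo-tang was called in 2790, and in 2030 to 3003 with one library left out. Of 97 named genes, followed over 1259 values, 108 values lost the threshold, none changed direction, and 68 genes kept direction and call throughout. Of the 108, 21 came without high replicate 1, 20 without low replicate 3 and 20 with only the groups compared. Other list members named in the text were not followed singly. The cause of these differences was not tested. Each mean rests on 3 libraries per dose, while the spread behind the p-values of the main fit is pooled over the 27 extract libraries. Genes with few reads pass only for large changes.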
